A study of Sus scrofa with 15 samples.

Results

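The genes described here are 10 parts of the bone morphogenetic protein (BMP) pathway: the ligand genes BMP2 and BMP4, the decoy receptor gene BAMBI, the signal transducers SMAD1 and SMAD5, the inhibitory SMAD6 and SMAD7, and the target genes ID1, ID2 and ID3. They were taken by symbol from both tables of the series, which together list 19197 genes. The set was chosen by what earlier results of these data showed, and which values were used for that choice is not recorded. Every difference between vectors below is therefore a description of these libraries, and the adjusted p-values beside it are no independent test.

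The study measured gene expression by RNA sequencing of total RNA in IPEC-J2, a pig intestinal epithelial cell line, in 15 libraries that form 5 groups of 3. All cells carried a lentiviral vector. The knockdown table has Lv133KD, a knockdown of miR-133, and Lv143KD beside their control Lv3NC. The overexpression table has OV143, which overexpresses miR-143, beside its control Lv20NC. The series text and the sample label name different miRNAs as the target of Lv143KD, so that target is unsettled here. The sources used here give neither the time after transduction nor the number of cultures or clones per vector, so p-values measure only the spread between these libraries, which may be technical. None of the 4 pig genes for miR-133 and miR-143 in the RefSeq table matched a row of either table, so the action of the vectors on their miRNAs could not be checked.

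BMP ligands bind receptor kinases at the cell surface, which phosphorylate SMAD1 and SMAD5. These join SMAD4, enter the nucleus and switch on target genes, of which the ID genes are among the most direct. ID proteins lack a DNA-binding region and hold basic helix-loop-helix transcription factors away from DNA, while SMAD6, SMAD7 and BAMBI are switched on by the pathway and dampen it. In the intestine BMP signalling acts mainly on the cells that leave the crypt, and antagonists shield the crypt base.

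Values are FPKM, fragment counts scaled to gene length and library size, which allows levels of different genes to be compared. FPKM does not keep the read total, so depth is unknown, and the FPKM sum per library ran from 486086 to 520630 (knockdown table) and from 518578 to 662022 (overexpression table). The highest sum is that of OV143 replicate 2, which stands apart from the other libraries of its table. All 6 epithelial markers were at 1 FPKM or more in each group, and their summed level was 1512 to 2355 FPKM in the former table and 1967 to 2840 in the latter. The 6 listed leukocyte markers summed to 1.81 to 4.06 FPKM over all libraries, and the 6 listed fibroblast markers to 2.08 to 5.92. In the overexpression table these sums held only 5 of the leukocyte and 4 of the fibroblast markers. PTPRC, the pan-leukocyte surface phosphatase, was at 0 in all 9 knockdown libraries and had no value in the overexpression table. The 6 endothelial markers summed to 5.31 to 13.6 FPKM, mainly from CDH5, the endothelial cadherin, which was at 3.82 to 10.75. In bulk libraries fewer cells of a type and less RNA per cell cannot be told apart.

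The ID genes stood far above the rest of the set in level. ID3 was highest, at 131.06 to 301.71 FPKM over the 15 libraries, followed by ID1 at 55.99 to 170.62 and ID2 at 34.25 to 77.63. That order held in 15 of 15 libraries, and all 3 were above BMP2, at 8.17 to 19.92 FPKM, in each. SMAD7 and SMAD1 lay close together, with SMAD7 above SMAD1 in 7 of 15 libraries, and BMP2 was above SMAD7 in 13 of 15, the 2 exceptions being Lv20NC libraries. BMP4, SMAD5 and SMAD6 were the lowest genes that reached 1 FPKM, at 2.48 to 8.11 FPKM. BMP4 exceeded SMAD5 in 12 of 15 libraries and SMAD5 exceeded SMAD6 in 12 of 15. BAMBI (NCBI Gene 449001; chromosome 10 from 40053368 to 40058590 of Sscrofa11.1) encodes a receptor-like protein without a kinase. It was at 0.02 to 0.14 FPKM, below the filter of 1 FPKM in 3 libraries, and was not tested. The other 9 genes passed in both tables.

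**Figure D1:**
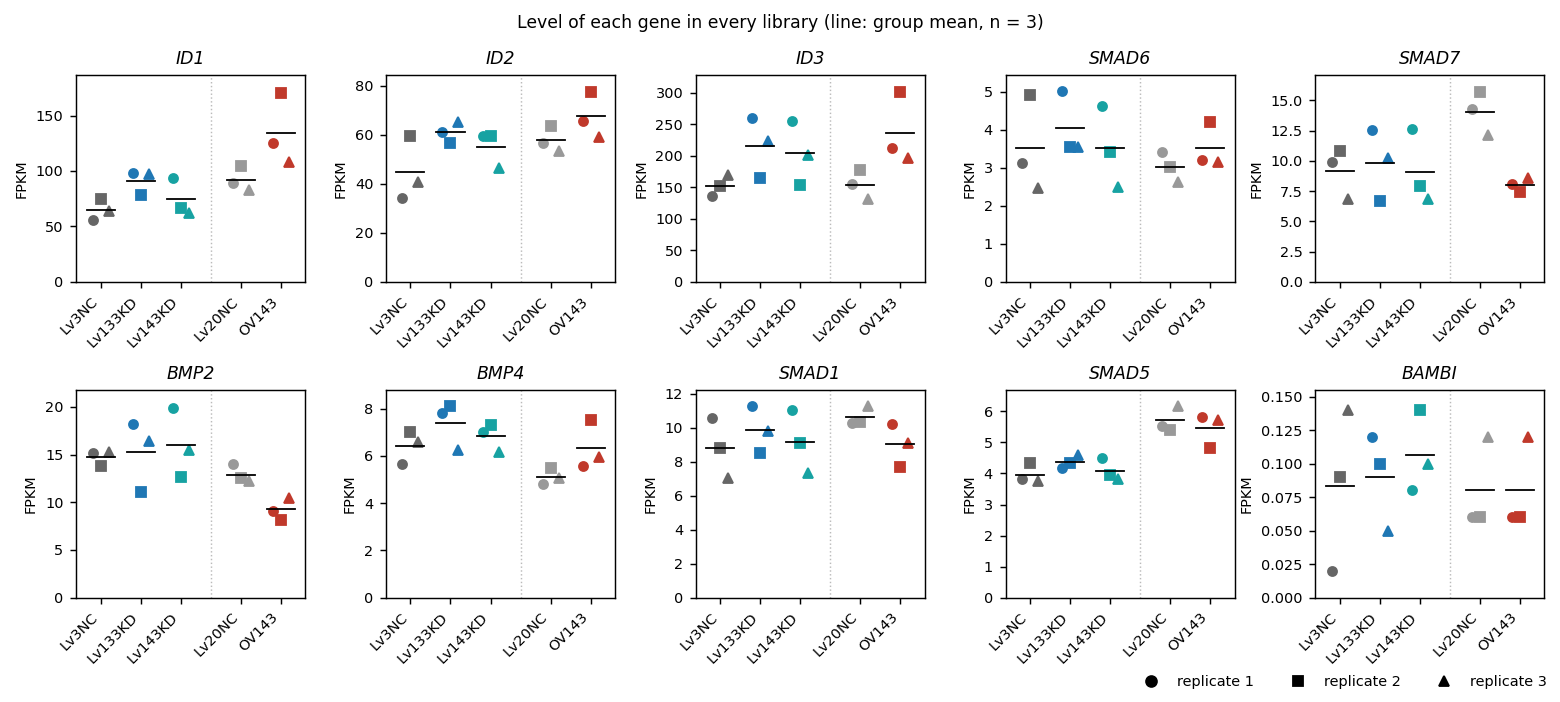
FPKM of each of the 10 genes (y axis, linear from 0) in every library by vector group (x axis), with the group mean as a line (n = 3) and the replicate number as the marker shape; the dotted line divides the 2 separately normalised tables. ID1 and ID3 are higher in all OV143 than in all Lv20NC libraries and SMAD7 and BMP2 lower, while most groups of the knockdown table overlap.

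OV143 was set against Lv20NC to ask how raised miR-143 alters expression. In OV143, ID1 and ID3 were higher than in Lv20NC while SMAD7 and BMP2 were lower. Of the other inhibitors SMAD6 did not share the direction of SMAD7 and BAMBI was at the same low level in both groups. Without the replicate number in the model none of the 9 genes was called at an adjusted p under 0.05 (limma), where 0% of the 11506 tested genes were called and 1304 had an unadjusted p under 0.05. With the replicate number as a block 3 of the 9 were called, ID1, ID3 and SMAD7, beside a background of 1.94% of all genes. The 3 OV143 libraries were all above the 3 controls for ID1, ID3 and BMP4, beside 8.96% of all genes, and all below them for SMAD7, BMP2 and SMAD1, beside 12.9%.

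Of the ligand genes, BMP2 (NCBI Gene 100157103; chromosome 17 from 15750487 to 15762982) was at 14.01, 12.52 and 12.19 FPKM in Lv20NC replicates 1 to 3 and at 9.13, 8.17 and 10.5 in OV143. The groups did not overlap, and the means were 12.9 ± 0.970 and 9.27 ± 1.17 FPKM (SD, n = 3). The difference was -0.44 on the log2(FPKM + 1) scale (SE 0.12; limma adjusted p = 0.248 without and 0.0788 with the block). BMP4 (NCBI Gene 100113425; chromosome 1 from 183415989 to 183422888), a closely related ligand, went the other way, at 4.82, 5.48 and 5.05 FPKM in Lv20NC and 5.58, 7.5 and 5.97 in OV143. Its difference of 0.26 (SE 0.12) was 0.15 without OV143 replicate 2, its highest library. Within a library, BMP4 was at 0.344 to 0.438 times the level of BMP2 in Lv20NC and at 0.569 to 0.918 times in OV143, so BMP2 stayed the more abundant ligand in every library. These ranges had to separate, since the groups of both genes did so in opposite directions, and they are no further evidence.

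Of the receptor-regulated SMADs, SMAD1 (NCBI Gene 397016; chromosome 8 from 82907557 to 82987909) was at 10.25, 10.32 and 11.3 FPKM in Lv20NC and 10.24, 7.69 and 9.11 in OV143. Replicate 1 was nearly equal in the 2 groups, which otherwise did not overlap. The difference was -0.22 (SE 0.12), and -0.12 without OV143 replicate 2. SMAD5 (NCBI Gene 100624262; chromosome 2 from 138287635 to 138344092), which carries the same signal, was at 5.53, 5.41 and 6.18 FPKM against 5.83, 4.83 and 5.72, and the groups overlapped. Its difference of -0.06 (SE 0.11) changed sign, to 0.02, without OV143 replicate 2.

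The inhibitory SMADs differed from each other. SMAD7 (NCBI Gene 100521305; chromosome 1 from 98512800 to 98543924), which blocks receptor kinases of both the BMP and the TGF-beta branch, was at 14.33, 15.72 and 12.17 FPKM in Lv20NC and 8.06, 7.41 and 8.55 in OV143. All OV143 libraries were below all controls with a clear gap, and the means were 14.1 ± 1.79 and 8.01 ± 0.572. The difference was -0.74 (SE 0.12; limma adjusted p = 0.122 without and 0.0194 with the block), and it ranged from -0.83 to -0.66 when any 1 library was left out. SMAD6 (NCBI Gene 100152069; chromosome 1 from 164652602 to 164735084), which acts mainly on the BMP branch, was at 3.43, 3.02 and 2.64 FPKM in Lv20NC and 3.2, 4.22 and 3.16 in OV143. Those groups overlapped, with a difference of 0.16 (SE 0.13), or 0.06 without OV143 replicate 2 and 0.09 without Lv20NC replicate 3. SMAD7 was thus 4.18 to 5.21 times the level of SMAD6 in the Lv20NC libraries and 1.76 to 2.71 times in the OV143 libraries.

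Among the target genes, ID1 (NCBI Gene 100522839; chromosome 17 from 35316518 to 35317742) was at 89.56, 104.48 and 82.44 FPKM in Lv20NC and 125.16, 170.62 and 108.19 in OV143. The lowest OV143 library lay just above the highest control, and replicate 2 was the highest of both groups. The means were 92.2 ± 11.2 and 134.7 ± 32.3 FPKM, and the difference was 0.52 (SE 0.18; limma adjusted p = 0.327), or SE 0.10 and adjusted p = 0.0350 with the block. Without OV143 replicate 2 the difference was 0.34.

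ID3 (NCBI Gene 100626978; chromosome 6 from 81422541 to 81424169) followed the same pattern, at 154.81, 176.78 and 131.06 FPKM in Lv20NC and 212.56, 301.71 and 196.32 in OV143. Again the groups did not overlap and replicate 2 was highest in each. The difference was 0.60 (SE 0.19; limma adjusted p = 0.295), or SE 0.10 and adjusted p = 0.0218 with the block, and 0.41 without OV143 replicate 2. The calls of ID1 and ID3 with the block were lost when the libraries numbered 3 were left out, and that of SMAD7 was not. That fit keeps 1 residual degree of freedom, so neither outcome says much about stability. ID2 (NCBI Gene 654298; chromosome 3 from 127500759 to 127503207) was at 56.8, 63.45 and 53.48 FPKM against 65.72, 77.63 and 59.18, higher in each of 3 numbered pairs but with overlapping groups and a difference of 0.21 (SE 0.13), or 0.11 without OV143 replicate 2.

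**Figure D2:**
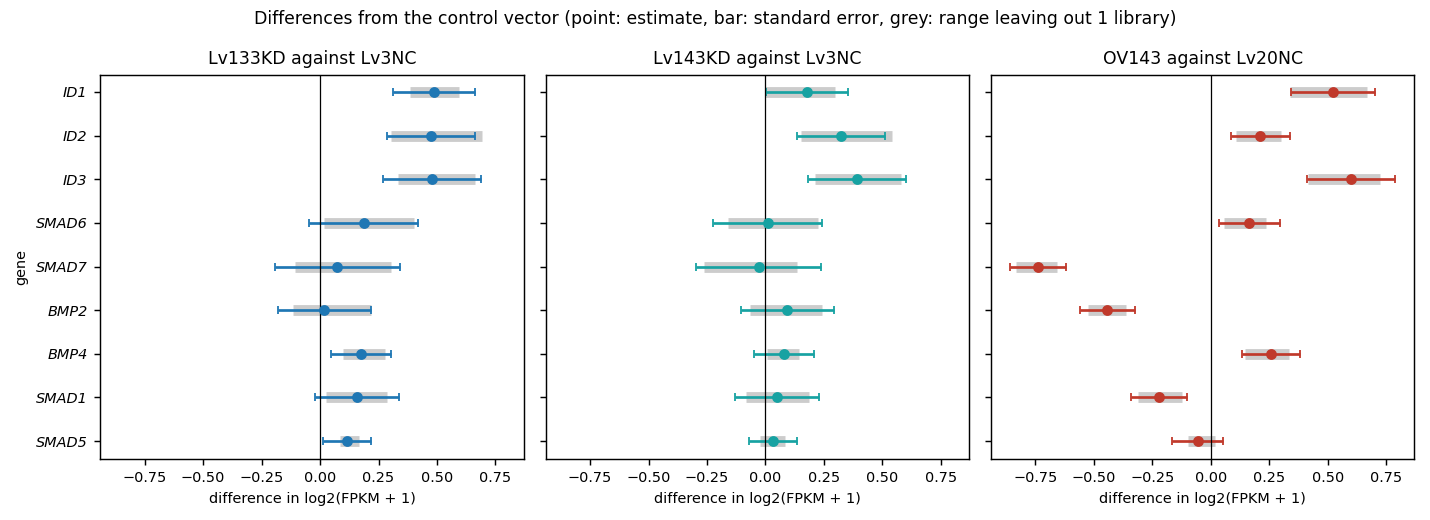
Difference from the control vector in log2(FPKM + 1) for the 9 tested genes (x axis; n = 3 libraries a group) in the 3 comparisons with a control, with the standard error of the fit without the block as a bar and the range over leaving out 1 library in grey. SMAD7 and BMP2 lie below 0 in OV143, and the ID genes lie above 0 in all 3 panels, with the range of ID1 in Lv143KD reaching 0.

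Set within each library, the ratio of ID1 to SMAD7 does not depend on any factor that scales a whole library. A factor that acts unequally on genes stays in the ratio. The ID1 to SMAD7 ratio was 6.25 to 6.77 in the Lv20NC libraries and 12.7 to 23.0 in the OV143 libraries, highest in OV143 replicate 2. These 2 groups had to separate, because every OV143 library was above every control for ID1 and below for SMAD7. The ratio therefore adds no further evidence. In the knockdown table it was 5.67 to 9.38 in Lv3NC, 7.84 to 11.7 in Lv133KD and 7.47 to 9.04 in Lv143KD, and these groups overlapped. The ratio of ID3 to ID1 varied little with OV143, at 1.59 to 1.73 in Lv20NC and 1.70 to 1.81 in OV143. It was 2.04 to 3.25 over the 9 knockdown libraries, but the tables were normalised separately and their vectors and controls differ, so the gap between tables was not tested.

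**Figure D3:**
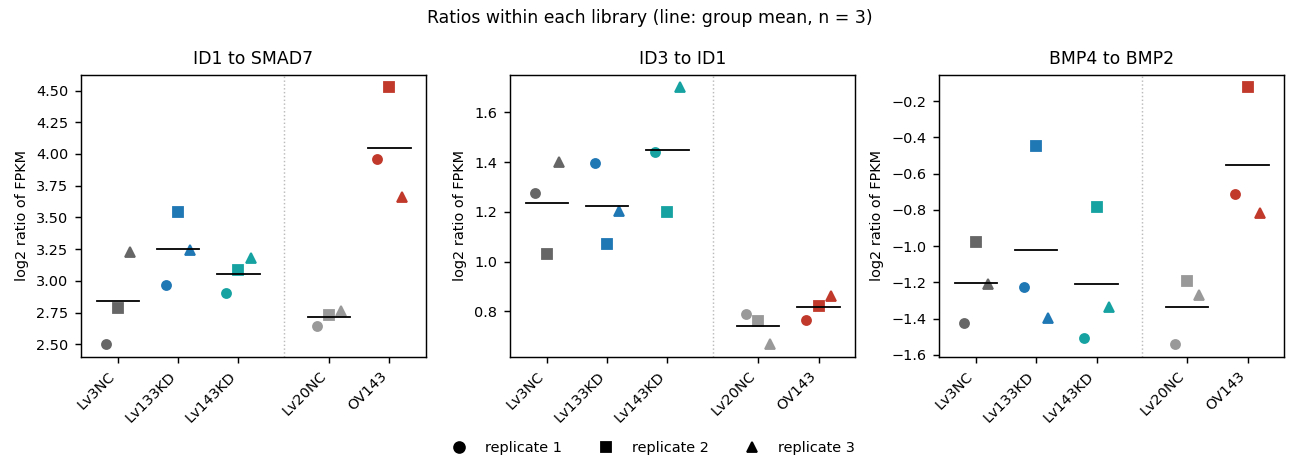
Log2 of the FPKM ratio of 2 genes within each library (y axis, log2 scale) by vector group (x axis), with the group mean as a line (n = 3). The ratio of ID1 to SMAD7 is higher in all OV143 libraries (3.66 to 4.53) than in all Lv20NC libraries (2.64 to 2.76), which follows from the separate groups of both genes.

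Lv133KD was set against Lv3NC to ask how lowered miR-133 alters expression. In Lv133KD all 3 ID genes had higher means than in Lv3NC, by a like amount, and the upstream genes differed little. ID1 was at 98.61, 78.12 and 96.97 FPKM in Lv133KD and 55.99, 74.79 and 64.06 in Lv3NC. The groups did not overlap, although the libraries numbered 2 came close to each other, and the difference was 0.49 (SE 0.17; limma adjusted p = 0.926). ID2 was at 61.17, 56.71 and 65.41 FPKM against 34.25, 59.33 and 40.82, so 1 control library reached the level of the knockdown libraries. ID3 was at 259.67, 164.15 and 223.21 FPKM against 135.44, 152.54 and 168.91, higher in each of 3 numbered pairs with overlapping groups. The differences of ID2 and ID3 were 0.47 (SE 0.19) and 0.48 (SE 0.21), and the lowest library of Lv3NC for all 3 ID genes was replicate 1. With any 1 library left out, the difference stayed at 0.39 or more for ID1, 0.30 or more for ID2 (without Lv3NC replicate 1) and 0.33 or more for ID3.

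The other 6 tested genes differed by 0.02 to 0.19 in Lv133KD, and their groups overlapped. SMAD7 was at 12.58, 6.69 and 10.24 FPKM against 9.87, 10.84 and 6.83, and BMP2 at 18.22, 11.04 and 16.43 against 15.2, 13.77 and 15.23. In neither gene did the vector sort the libraries, and both differences changed sign when 1 library was left out. None of the 9 genes was called without or with the block (adjusted p = 0.228 or more with it), beside 0.0172% and 0.258% of the 11645 tested genes; 380 and 1922 genes had an unadjusted p under 0.05. The 1 gene of the set with all Lv133KD libraries above all controls, ID1, stands beside 4.69% of all genes, and the count of 0 in the other direction beside 3.33%. The median difference of the 9 genes was 0.17, and over all tested genes it was 0.01.

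Lv143KD was compared with the same 3 Lv3NC libraries, so its differences and those of Lv133KD share their controls. ID3 was at 255.67, 153.67 and 201.61 FPKM, ID2 at 59.39, 59.65 and 46.51, and ID1 at 94.1, 66.96 and 62.02. All of these groups overlapped Lv3NC, and the differences were 0.39 (SE 0.21), 0.32 (SE 0.19) and 0.18 (SE 0.17). That of ID1 rested on Lv143KD replicate 1 and was -0.00125 without it, and it was 0.08 without Lv3NC replicate 1. That of ID3 was 0.21 without Lv143KD replicate 1, and that of ID2 was 0.15 without Lv3NC replicate 1 and 0.54 without Lv3NC replicate 2. SMAD7 was at 12.6, 7.89 and 6.86 FPKM, with a difference of -0.03 (SE 0.27), and SMAD6 at 4.62, 3.43 and 2.49, with 0.01 (SE 0.23). None of the 9 genes was called without or with the block, beside 0.0172% and 0.172% of all genes, where 208 and 669 had an unadjusted p under 0.05. None had separate groups, beside 2.11% of all genes above and 2.03% below.

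Set directly against Lv143KD, Lv133KD had the higher ID1 level in each of 3 numbered pairs, with a difference of 0.31 (SE 0.17; limma adjusted p = 1.00, and 0.910 with the block). The differences of the other 8 genes ran from -0.07 for BMP2 to 0.18 for SMAD6. None of the 9 was called, where 0% of all genes were called without the block and 0% with it, and 15 and 209 genes had an unadjusted p under 0.05. No gene of the set had separate groups, beside 2.11% of all genes above and 0.55% below. A p that misses the threshold does not show that the 2 vectors acted alike.

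Each group carries the replicate numbers 1, 2 and 3, and what a number marks is not stated in the labels. In the overexpression table the number gives 3 means of 2 libraries and the vector 2 means of 3. The number would there have the wider spread in most genes without any effect of either. Of the 9 genes, 4 varied more with the number than with the vector in that table, where 74.1% of all tested genes did. In the knockdown table, where both give 3 means of 3 libraries, it was 5 of 9, and 84% of all tested genes. BMP2 was lowest in the library numbered 2 of each of the 3 groups, at 11.04 to 13.77 FPKM, and its mean deviation from the group means was 0.21, -0.26 and 0.05 for numbers 1, 2 and 3 (limma adjusted p = 0.0241). SMAD1 was highest in number 1 of each group, at 10.58 to 11.29 FPKM, with deviations of 0.23, -0.05 and -0.18 (adjusted p = 0.0321). These were the 2 of 9 genes called for the number, beside 36.6% of all tested genes. SMAD7 deviated by 0.32, -0.12 and -0.20 and was not called (adjusted p = 0.0951), nor was SMAD6 at 0.17, 0.10 and -0.27 (0.102).

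The spread over numbers was 0.48 for BMP2 and 0.51 for SMAD7, against 0.09 and 0.10 over the 3 vectors. ID1 and ID2 went the other way, with 0.14 and 0.23 over numbers against 0.49 and 0.47 over vectors. Over all tested genes the medians were 0.28 over numbers and 0.14 over vectors. Within the vector groups of the knockdown table the spread was widest for SMAD7, at an SD of 0.39 on the log2 scale, above that of 90.9% of genes, and narrowest for SMAD5, at 0.08, above that of 8.79%. In the overexpression table ID3 had the widest, at 0.28, and SMAD7 was at 0.14, above that of 39.3% of genes.

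In the overexpression table none of the 9 genes was called for the number, beside 0.0521% of all genes, and 3010 genes had an unadjusted p under 0.05. ID1 and ID3 were highest in the library numbered 2 of both groups and lowest in number 3, with spreads over numbers of 0.50 and 0.52 (adjusted p = 0.131 and 0.130) beside 0.52 and 0.60 between the vectors. The FPKM sum per library was also highest in number 2 of both groups, at 558042 in Lv20NC and 662022 in OV143. Whether it bears on the levels of ID1 and ID3 was not tested. The mean deviations of SMAD7 spread by 0.08 over numbers in this table, beside 0.74 between the vectors. That small value is an average of opposite orders in the 2 groups. Number 2 was the highest library of Lv20NC (15.72 FPKM) and the lowest of OV143 (7.41 FPKM).

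**Figure D4:**
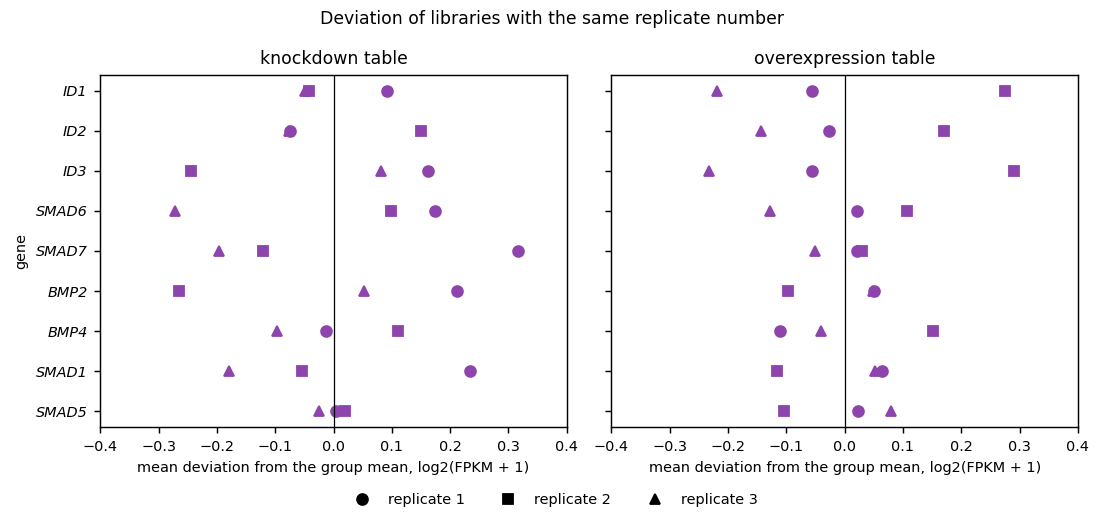
Mean deviation of the libraries with replicate number 1, 2 or 3 from their group means in log2(FPKM + 1) (x axis) for the 9 tested genes, over 3 groups in the knockdown table and 2 in the overexpression table. BMP2 and SMAD7 spread by 0.48 and 0.51 in the knockdown table, and ID1 and ID3 by 0.50 and 0.52 in the overexpression table.

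The genes whose pattern was nearest to that of ID1 were sought among 8132 genes with a mean of at least 5 FPKM in both tables, as the root mean square difference over the 15 libraries after centring each gene within its table. The nearest outside the set were RAB9A (0.12), PDXK (0.14), TUBB4A (0.15), B9D2 (0.17) and the gene listed as LOC100517166 (0.17), against a median of 0.34 over all genes. ID3 was at 0.16, with 3 genes nearer, and ID2 at 0.17, with 9 nearer. For SMAD7 the nearest were TNFAIP2 (0.15), BHLHE41 (0.16), RIPK4 (0.16), VEGFA (0.16) and IFFO2 (0.16), against a median of 0.37, and BMP2 was at 0.21 with 41 genes nearer. ID1 and SMAD7 were 0.47 apart. These libraries share their replicate numbers and the outlying OV143 replicate 2, and the values are descriptive.

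The wider pathway was read from 10 lists of 93 other genes, of which 60 were tested in the knockdown table and 58 in the overexpression table. Of the 11 other BMP ligand genes none was tested, and the highest values, those of BMP8B and BMP3, were 0.21 FPKM. BMP5 followed in mean level, at 0.0 to 0.04 FPKM. BMP2 and BMP4 thus held nearly all of the BMP ligand signal in these tables. The receptors ACVR1, BMPR1A and BMPR2 were at 11.81 to 19.96, 7.62 to 13.76 and 4.38 to 9.91 FPKM over the libraries. On the TGF-beta side, the receptor TGFBR2 was at 102.62 to 220.93 FPKM, well above TGFBR1 at 7.94 to 19.01 and TGFBR3 at 4.28 to 13.14, and the ligand gene TGFB1 was at 46.45 to 82.75, with the activin subunit genes INHBB at 4.21 to 15.04 and INHBA at 0.65 to 9.62. The shared and TGF-beta SMADs were above SMAD5 and SMAD6 in level, with SMAD3 at 21.4 to 39.28, SMAD4 at 14.59 to 19.86 and SMAD2 at 9.32 to 15.96.

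The antagonist GREM1, a secreted protein that binds BMP2 and BMP4, was at 71.83 to 222.05 FPKM, above both ligand genes in every library. FSTL3 and NBL1, other secreted antagonists, were at 39.08 to 77.87 and 28.05 to 67.86 FPKM. ID4, the remaining ID gene, was at 102.1 to 190.03 FPKM, while the BMP target genes RUNX2 and MSX1 were at 2.98 to 8.41 and 3.23 to 9.47. The helix-loop-helix genes HES1, TCF12 and TCF3 were at 77.86 to 134.86, 10.23 to 23.81 and 5.24 to 10.51 FPKM. Of the intracellular regulators FKBP1A, which binds type I receptors, was highest at 307.51 to 508.23 FPKM, ahead of the corepressor gene TGIF1 at 101.96 to 142.23.

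In OV143, 44 of these 58 genes had lower and 14 higher means than in Lv20NC, with a median difference of -0.16, against -0.02 and 45.8% higher over all tested genes. Without OV143 replicate 2 it was 37 lower and 21 higher, with a median of -0.05, against -0.02 and 46.2% higher over all genes. The 3 OV143 libraries were all below the controls for 18 genes, beside 12.9% of all genes, and all above for 2, TGFBI and ID4, beside 8.96%. None was called without the block. With it 4 were called lower and 1 higher, beside 1.94% of all genes in both directions. Of all 11506 tested genes 149 were called lower and 74 higher. The lists were written with earlier results of these data known.

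Of the intracellular SMAD regulators 14 of 15 had lower means, with a median of -0.23, but 10 of 15 and -0.05 without OV143 replicate 2. With the block 2 were called, beside 1.94% of all genes. SMURF1, a ubiquitin ligase that works with the inhibitory SMADs, was at 21.45, 20.09 and 19.69 FPKM in Lv20NC and 13.73, 11.44 and 13.62 in OV143. PMEPA1, a TGF-beta-induced inhibitor of SMAD signalling, was at 57.17, 58.26 and 46.59 FPKM against 37.0, 35.56 and 34.94. Neither pair of groups overlapped, and the differences were -0.62 (SE 0.10, limma adjusted p = 0.0204 with the block, 0.124 without) and -0.57 (SE 0.10, 0.0238 and 0.159).

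Of the 5 TGF-beta target genes tested, 1 was called lower and 1 higher with the block, beside 1.94% of all genes in both directions. CCN2, a matricellular growth factor gene listed under its older symbol CTGF, was at 399.21, 356.26 and 390.77 FPKM in Lv20NC and 265.27, 152.94 and 277.16 in OV143. The difference was -0.77 (limma adjusted p = 0.0277 with the block, 0.276 without), and it was -0.49 without OV143 replicate 2, its lowest library. TGFBI, an extracellular matrix gene of the same list, was higher, at 16.38, 15.88 and 15.37 FPKM against 22.67, 22.12 and 21.86 (difference 0.46, adjusted p = 0.0459 with the block, 0.148 without), so the list did not move one way. TAGLN, another gene of that list and an actin-binding protein gene, was at 61.41 to 240.86 FPKM over the libraries and was not called.

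Of the extracellular antagonists GREM1 alone of 8 tested was called with the block, beside 1.94% of all genes. GREM1 was at 222.05, 200.1 and 216.93 FPKM in Lv20NC and 168.32, 102.46 and 154.8 in OV143. Every OV143 library was below every control, and the difference was -0.61 (SE 0.12, limma adjusted p = 0.0374 with the block, 0.283 without), or -0.40 without OV143 replicate 2. With the libraries numbered 3 left out, the blocked calls of GREM1 and TGFBI were lost (0.0502 and 0.361), in a fit that keeps 1 residual degree of freedom. All 4 tested helix-loop-helix partners of ID proteins had lower means, 3 of 4 without OV143 replicate 2, and none was called (adjusted p = 0.129 or more with the block). Of the 5 other BMP target genes tested, 2 had higher and 3 lower means and none was called. ID4 was at 152.97, 160.19 and 162.69 FPKM in Lv20NC and 190.03, 182.73 and 180.79 in OV143, above the controls in every library but not called (difference 0.22, adjusted p = 0.426 without and 0.254 with the block). RUNX2, an osteoblast transcription factor gene, lay on the other side, at 8.07, 8.23 and 7.2 FPKM in Lv20NC and 5.88, 4.9 and 5.44 in OV143. Its groups did not overlap either, and it was not called (difference -0.46, limma adjusted p = 0.211 without and 0.0650 with the block).

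**Figure D5:**
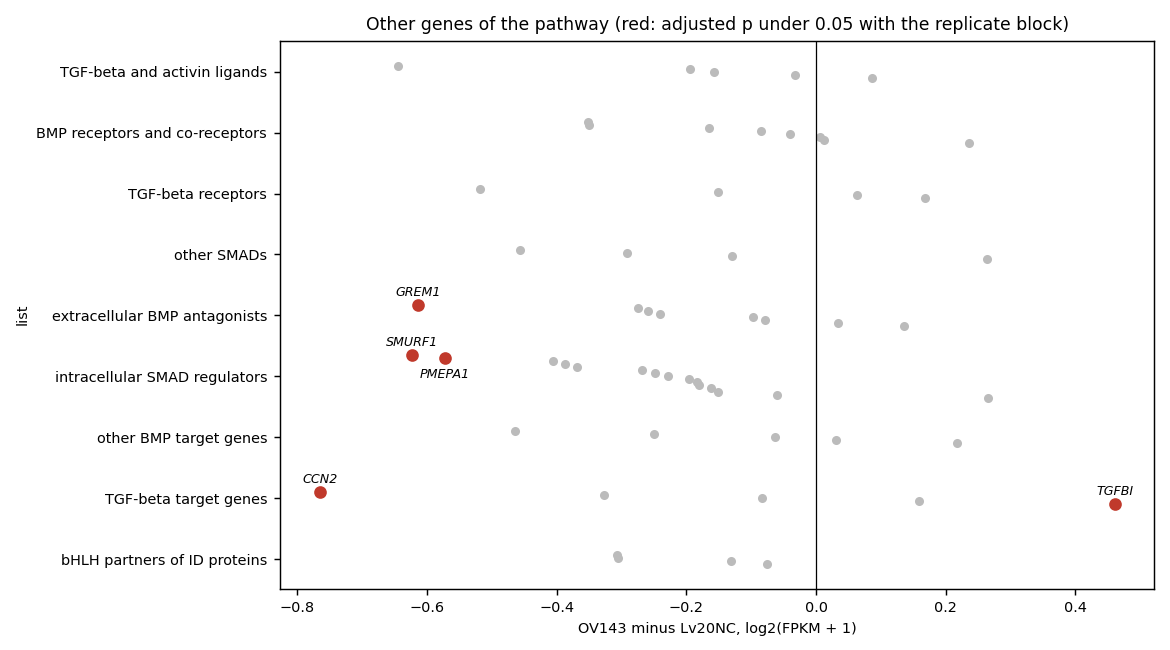
Difference between OV143 and Lv20NC in log2(FPKM + 1) (x axis; n = 3 libraries a group) for the 58 tested genes of 9 pathway lists (y axis), 1 point a gene, with the 5 genes called with the replicate block in red. Of the intracellular SMAD regulators 14 of 15 points lie below 0 (10 of 15 without OV143 replicate 2), and TGFBI is the 1 red point above 0.

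In the knockdown comparisons none of the 60 pathway genes was called, without or with the block. The smallest adjusted p with the block was that of TGFBR3, a co-receptor that presents TGF-beta, at 0.0712 in Lv133KD (7.82 ± 1.04 against 5.33 ± 1.03 FPKM) and 0.0594 in Lv143KD (8.19 ± 1.51 FPKM). It is the gene nearest to the threshold and was singled out after its values were seen. For the replicate number 24 of the 60 were called, beside 36.6% of all tested genes, among them PMEPA1, which deviated by 0.63 in number 2 and by -0.63 in number 3 (limma adjusted p = 0.00107).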

How the data were processed

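Per the file headers, the authors deposited gene-level FPKM, rounded to 2 decimals, in separate tables for the 9 knockdown and the 6 overexpression libraries. The build is Sscrofa11.1, per the submitters' processing notes. Not given in the sources used here are the aligner, counting tool, annotation, strand use and normalisation steps. Symbols and coordinates came from a RefSeq table of that build, by NCBI Gene number, for 18618 of 19000 and 16949 of 17001 genes. No RefSeq sequence table was used, so no sequence is printed. Steps between low FPKM values could be read for only 18 and 57 genes, so depth stayed unknown. No 2 libraries held identical values.

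Each table was fitted alone, because they were normalised separately, with limma 3.58.1 in R 4.3.3 on log2(FPKM + 1), a scale that understates changes of low genes. Tested were the 11645 and 11506 genes that reached 1 FPKM in 3 or more libraries. The variance was moderated with a trend, tests were two-sided, p-values were adjusted by Benjamini-Hochberg over every tested gene, and a call needs an adjusted p under 0.05. The script was tested on simulated data. Deviations of libraries with the same replicate number correlated at 0.27 to 0.85 (9 pairs) and 0.23 to 0.72 (3 pairs), above the limit of 0.1 in every pair. Those with different numbers ran from -0.87 to 0.38 (18 pairs) and from -0.68 to 0.54 (6 pairs), so some exceeded same-number pairs. The numbers were taken to pair the libraries on this check alone, so the pairing and the calls that need the block are uncertain. The fit with the number as a block is given where it changes a call. Groups follow the sample labels. Members and lists were chosen with earlier results of these data known, and 1 item of the lists is not reported here. Named were all members, pathway genes called in any vector comparison (at most 4 a list), the 3 highest genes of each list, and the 5 genes nearest to ID1 and to SMAD7. Alternatives were the pseudocount, the filter, centring, quantile normalisation, the block and leaving out libraries, and running them for the called pathway genes, and the lists without OV143 replicate 2, was chosen after seeing the data.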

Additional observations from a re-analysis of the deposited data

How the results depend on the processing

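Of 533 alternative values of the differences between vectors of the 9 genes, 529 moved by less than the spread between replicates. Most of these could not have done otherwise. Leaving out 1 of 3 libraries shifts a group mean by less than that spread, and the filters and the full block leave the difference unchanged. A value within the spread could also change sign, so the count of 529 is no measure of stability. The 4 others came from blocked fits of the knockdown table without 1 number: ID1 was at 0.70 in Lv133KD without number 2 and at -0.10 in Lv143KD without number 1, and between the knockdowns SMAD5 was at 0.16 without number 1 and ID2 at -0.01 without number 3. No difference between vectors of the 9 genes was called in the knockdown table under any setting. In OV143, SMAD7, ID1 and ID3 were called with the replicate block. SMAD7 alone was called without OV143 replicate 2, and BMP2 joined the 3 only when the blocked fit left out replicate 2, which keeps 1 residual degree of freedom.

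The number of genes called over a whole table depended on the setting, and the cause was not tested. For Lv133KD against Lv3NC it was 2, but 1 with no filter, 0 with median centring and 30 with the replicate block, 0 to 72 when libraries were left out (with the block, 1, 12 and 72 without number 1, 2 and 3). For Lv143KD against Lv3NC it was 2, but 1 with no filter, 1 with median centring and 20 with the replicate block, and 0 to 60 when libraries were left out. For OV143 against Lv20NC it was 0, but 2 with median centring, 6 with quantile normalisation and 223 with the replicate block. Leaving out libraries gave 0 to 1466, with 513 without OV143 replicate 2 and, with the block, 705, 1466 and 297 without number 1, 2 and 3. Each of these 3 blocked fits keeps 1 residual degree of freedom. For the replicate number it was 4266 in the knockdown table, and 1445 to 6915 when libraries were left out. In the overexpression table it was 6, but 2 with a pseudocount of 0.1, 0 with no filter and 0 with a mean of at least 5 FPKM, and 144 to 6268 when libraries were left out. Lv133KD against Lv143KD gave 0 in every setting. With unknown depth, a difference in genes as low as BAMBI was not detectable, and 3 libraries a group limit the rest.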
